A study of Mus musculus with 16 samples.

Results

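MicroRNA levels were compared between control fetal mouse adrenals of embryonic days E15.5 and E16.5, which spans 1 day of normal development. The members are the 335 miRNA assays, of 741 miRNA names on the panel, that were detected in at least 3 samples of either control age. They were chosen by detection alone, with no use of the difference between ages. Of them, 282 were detected in all 8 control samples.

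Each sample was total RNA of adrenals from C57BL/6 embryos, read on a TaqMan OpenArray real-time PCR panel. The parents were Sf1-Cre/Dicer lox/lox, Sf1-Cre/Dicer +/lox and Dicer lox/lox mice, and the control embryos, labelled WT, were littermates without Cre. The WT label does not say which of them carried floxed Dicer alleles, and with these parents the controls may carry them. Adrenals of control littermates were pooled within a litter, with 4 litters given as the replicates, so there were 4 WT samples at E15.5 and 4 at E16.5. The 8 other samples of the series, 4 at each age, were Dicer knockout (KO) littermates labelled Sf1-Cre/Dicer lox/lox, in which Cre is driven by the promoter of Sf1, a gene of steroidogenic cells. The morning of a plug counted as E0.5, and the title of E15.5 replicate 1 carries an R that the labels do not explain.

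MicroRNAs are short RNAs cut from hairpin precursors by the enzymes Drosha and Dicer. Loaded into Argonaute proteins, they pair with target transcripts mainly through the seed, bases 2 to 8 of the mature RNA, and lower their translation and stability, so that miRNAs with 1 seed share most of their targets. The fetal adrenal holds a steroid-producing cortex that grows and begins to form its zones, chromaffin cells that descend from the neural crest, vessels, a capsule of mesenchyme and circulating blood. Whole pooled glands were measured here, and in such bulk samples fewer cells of a type and less RNA per cell cannot be told apart.

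The threshold cycle (Ct) of a well is the PCR cycle where its fluorescence first passes a set line, and 1 cycle less stands for about a doubling of template. A level here is the mean Ct of 5 small RNA controls that Dicer does not make (U6, snoRNA135, snoRNA202, U87 and Y1) minus the Ct of the assay, so it is on a log2 scale. A Ct above 28, or none, counted as undetected and was set to 28, which places an undetected well at a level from -11.45 to -10.17 in the E15.5 samples and from -11.29 to -10 in the E16.5 samples. Levels of different assays are not comparable, because assays amplify with different efficiency. Panel names carry a human, rat, fly or mouse prefix (hsa, rno, dme, mmu), which is left out below unless an miRNA has more than 1 assay.

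Sequences are shown first for the miR-29 and miR-30 families, so that their shared seeds can be seen, and for some single miRNAs on which the results turn. They are the mouse mature forms in RefSeq (GRCm38.p6), written 5′ to 3′ with the seed in capitals. The miR-29 family, known for repressing collagens and other matrix genes, has 3 members of 1 seed:
miR-29a-3p: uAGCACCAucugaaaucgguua
miR-29b-3p: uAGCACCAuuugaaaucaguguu
miR-29c-3p: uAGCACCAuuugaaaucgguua
The miR-30 family, abundant in differentiated tissues such as kidney and heart, shares another seed, shown here for 3 members:
miR-30a-5p: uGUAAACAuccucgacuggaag
miR-30c-5p: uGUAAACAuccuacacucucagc
miR-30e-5p: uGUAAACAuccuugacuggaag
The remaining 6 were among the assays with the smallest p-values, or, for miR-21a, in the list of steroidogenic cell miRNAs, and no pair of them shares a seed:
miR-101a-3p: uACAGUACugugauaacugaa
miR-223-3p: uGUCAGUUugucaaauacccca
miR-21a-5p: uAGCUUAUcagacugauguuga
miR-202-3p: aGAGGUAUagcgcaugggaaga
miR-34b-3p: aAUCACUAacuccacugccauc
miR-676-3p: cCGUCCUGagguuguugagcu

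The mature miR-29 sequences lie at 4 sites in 2 pairs (GRCm38.p6): miR-29a at chr6:31062673-31062694 beside a copy of miR-29b at chr6:31063025-31063047, both on the minus strand, and the other copy of miR-29b at chr1:195037091-195037113 beside miR-29c at chr1:195037600-195037621, both on the plus strand and inside the span of the non-coding gene A330023F24Rik. The miR-30 sequences form 2 pairs in the same way. On the plus strand of chromosome 1 lie miR-30a at chr1:23272274-23272295 and a copy of miR-30c at chr1:23291714-23291736. On the minus strand of chromosome 4 lie the other copy of miR-30c at chr4:120769584-120769606 and miR-30e at chr4:120772660-120772681, within Nfyc, a gene for a CCAAT-binding factor subunit. Of the rest, miR-21a lies within Vmp1 (chr11:86584120-86584141, minus strand), miR-676 within Eda (chrX:100381151-100381171, plus strand) and miR-34b within the spans of Btg4 and Hoatz (chr9:51103574-51103595, minus strand). The other 3 lie within spans of non-coding genes, miR-202 in Gm16201 (chr7:139957695-139957716, minus strand), miR-101a in E130102H24Rik (chr4:101346957-101346977, minus strand) and miR-223 in F630028O10Rik (chrX:96242884-96242905, plus strand). The gene table used gives only starts and ends, so exon, intron and the host's strand are not stated here.

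Most miRNA levels, set against the 5 controls, were higher at E16.5, and no single assay passed the adjusted test. The labels do not say whether both ages were run together, so a difference between runs cannot be told apart from age. The median level over the 335 members was -5.48, -5.57, -5.49 and -5.84 in the E15.5 samples and -4.76, -4.64, -5.26 and -4.91 in the E16.5 samples. Every E16.5 sample lay above every E15.5 sample. The group values were -5.60 ± 0.17 and -4.89 ± 0.27 (SD, n = 4 each), a difference of 0.70 or 1.63-fold. The exact permutation p (two-sided) was 0.0286, which no split of 4 against 4 samples can undercut, and 0.0786 after Benjamini-Hochberg adjustment over the 11 sample measures tested.

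Assay by assay, the median log2 change was 0.62, or 1.54-fold, with quartiles of 0.32 and 0.87, the same median as over all 341 assays tested in the series. A change above 0 was found in 308 of the 335 members (91.9%), against 91.8% of all assays tested. In limma 0 members were called higher and 0 lower at an adjusted p of 0.05 (0% of the 341 tested), with a smallest adjusted p of 0.17. At an unadjusted p under 0.05 there were 65 higher and 0 lower, against 19.1% and 0% of all tested. In 44 members every E16.5 sample lay above every E15.5 sample (12.9% of all tested), and in 0 did every one lie below (0% of all tested). Since 335 of the 341 tested assays are members, these backgrounds are nearly the members' own shares. The median standard error of a change was 0.46, and most single changes had an unadjusted p of 0.05 or more in limma. Each standard error and p from limma pools the spread within all groups of the series, the KO samples included.

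**Figure D1:**
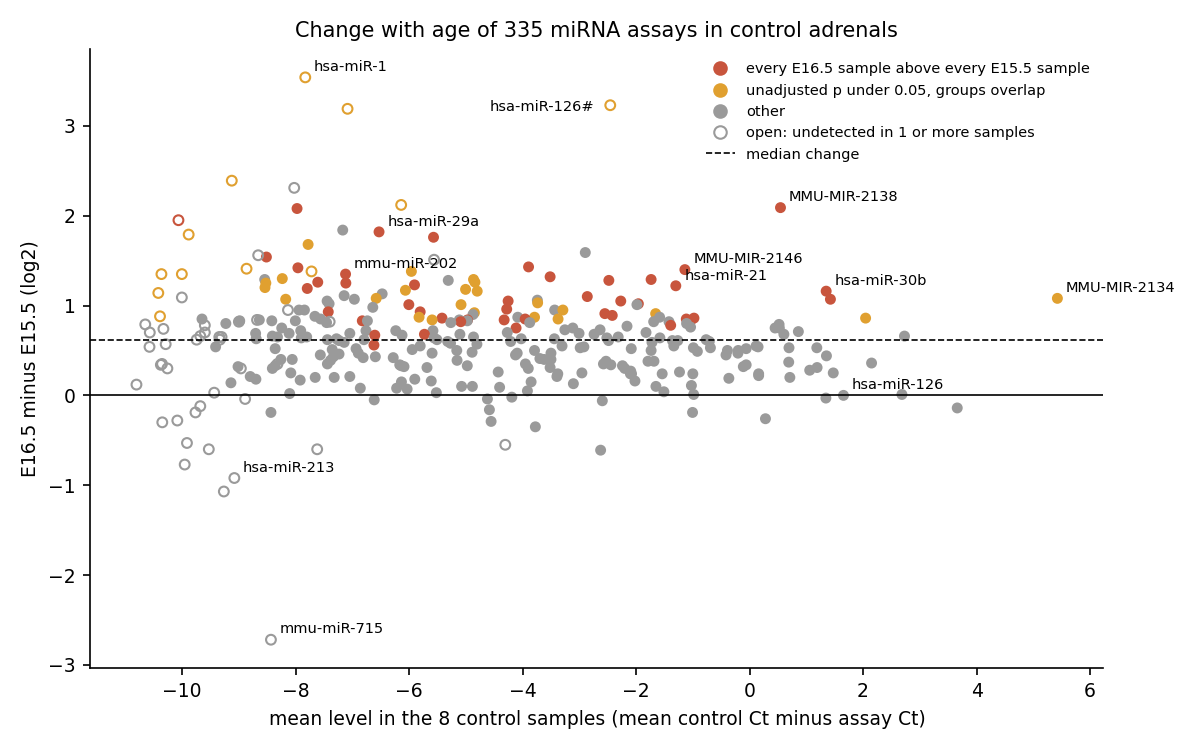
The log2 change from E15.5 to E16.5 (y axis) of the 335 assays is plotted against the mean level in the 8 control samples (x axis); open points were undetected in at least 1 of these samples. Points crowd around a median of 0.62 (dashed line) at all levels, and the wide spread below 0, down to -2.72 for miR-715, is among assays not detected in every sample.

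The size of the common shift depended on which RNAs served as the reference. With the 4 controls other than U6 the difference of sample medians was 0.78, and 0.58 with control wells of the assay's own set (the sets are described with miR-2146), with an exact permutation p of 0.0286 for each. With U6 alone it was 0.38, and without any reference 0.40, each with overlapping groups (exact permutation p = 0.286 for both). U6 is a spliceosomal RNA, the snoRNAs and U87 guide chemical changes of other RNAs, and Y1 is a small cytoplasmic RNA. Set against the other 4 controls, U6 stood 0.41 higher at E16.5 (exact permutation p = 0.143) and snoRNA135 0.31 lower, at -0.94 ± 0.07 and -1.26 ± 0.15 (SD, n = 4 each), with an exact permutation p of 0.0286 and an adjusted p of 0.0786. The raw mean Ct of the controls was 16.96 ± 0.59 and 17.26 ± 0.57 (SD, n = 4 each), with an exact permutation p of 0.486, which is later at E16.5 by less than the spread. Each sample was scaled to its median over the 233 miRNA assays detected in all 16 samples, which removes a shift common to those assays. The median change was then 0.14, and 211 of 335 members were above 0. The members include assays outside this reference, so their median need not be 0. In limma 21 were higher and 4 lower at an unadjusted p under 0.05, with 0 called.

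**Figure D2:**
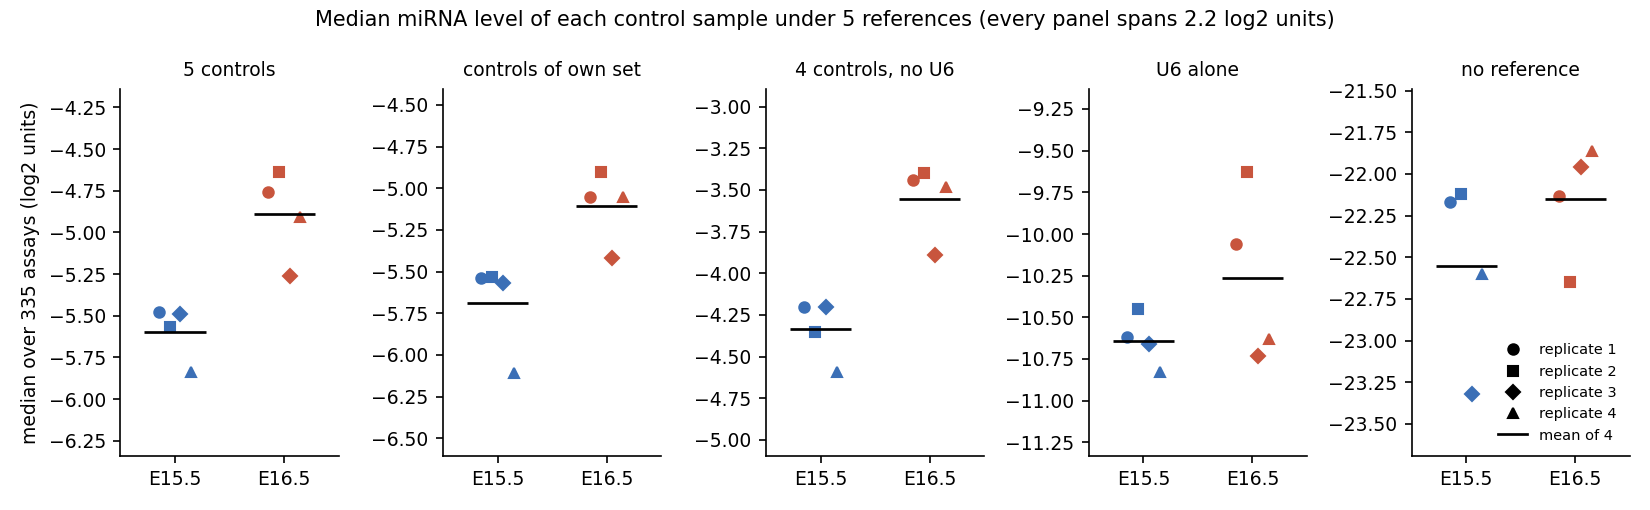
Median level over the 335 assays in each control sample (y axis, log2 units) at both ages under 5 references; symbols mark replicates and bars the mean of 4 samples. The ages are apart with 5 controls, with 4 controls and with controls of the own set, and overlap with U6 alone and without a reference.

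The number of miRNA names detected per sample was 341, 347, 310 and 334 at E15.5 and 334, 327, 356 and 344 at E16.5. The ages overlapped, at 333 ± 16.2 and 340 ± 12.6 (SD, n = 4 each), with an exact permutation p of 0.543. Detection of the members was also alike, with 307 detected in at least 3 samples of both ages, 16 of E16.5 alone and 12 of E15.5 alone. The shift was as large in the members detected throughout: over the 282 found in all 8 samples the median change was 0.62 with 268 above 0, and over the other 53 it was 0.66 with 40 above 0. Of the 44 members whose ages did not overlap, 43 were detected in all 8 samples.

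Labelled as adrenal, the samples carried miRNAs known from steroidogenic and neuroendocrine tissue. MiR-202, a gonadal and steroidogenic miRNA, and miR-375, known from neuroendocrine cells, were detected in all 8 samples. MiR-7, also a neuroendocrine miRNA, was detected in all 8, and its level lay between -3.96 and -2.88 at E15.5 and between -3.54 and -3.02 at E16.5. These markers are shared with other tissues and do not single out the adrenal.

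The miR-29 family had a median change of 1.79, against 0.62 over all assays tested. All 3 members had an unadjusted p under 0.05 and none passed the adjusted test. MiR-29a was at -7.43, -7.11, -7.55 and -7.68 at E15.5 and at -5.69, -5.08, -6.30 and -5.40 at E16.5. Its 2 ages were apart, with a log2 difference of 1.82 ± 0.54 (SE), or 3.54-fold, and an adjusted p of 0.234 in limma. MiR-29c, with the same seed, was at -6.12, -6.37, -6.95 and -6.36 and then at -4.54, -4.13, -5.43 and -4.65. Here too every E16.5 sample was the higher, by 1.76 ± 0.75 (SE) in the mean, adjusted p of 0.24 in limma. MiR-29b was detected in 1 of 4 samples at E15.5, replicate 3 at -9.11, and in all 4 at E16.5, at -8.26, -8.36, -9.93 and -9.40. Its change of 1.79 rests on where undetected wells were set: with those wells left out it was 0.12.

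The KO samples give the same contrast in other RNA pools, but as littermates of the controls they are not an independent repeat. In KO, miR-29a and miR-29c differed by about as much between the ages, 1.89 and 1.73, while miR-29b differed by -0.32. MiR-29a and miR-29c were each detected in 3 KO samples at E15.5 and 4 at E16.5, and miR-29b in 3 and 2. Undetected wells count at the limit, so the size of these KO changes rests in part on where it was set. The miR-29 family's median without E16.5 replicate 2, which was high in many assays, was 1.58, with an unadjusted p under 0.05 for 2 of 3.

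The miR-30 family was read by 8 assays, for 5 members and some of their other hairpin arms, all with a change above 0 and 6 with an unadjusted p under 0.05. Its median change was 0.88 (0.52 in KO), and in 5 of 8 the ages did not overlap, against 12.9% of all tested. MiR-30e was at -3.94, -3.88, -3.58 and -5.31 at E15.5 and at -2.70, -1.97, -3.53 and -3.22 at E16.5, a difference of 1.32 ± 0.48 (SE, adjusted p of 0.234 in limma). MiR-30b was at 1.00, 0.98, 1.01 and 0.09 at E15.5 and at 2.11, 2.53, 1.28 and 1.81 at E16.5, a difference of 1.16 ± 0.42 (SE, adjusted p of 0.234 in limma). In both, E15.5 replicate 4 was the lowest sample and E16.5 replicate 3 the lowest of its age. MiR-30c had the same order of extremes, from 0.17 to 1.21 at E15.5 and from 1.23 to 2.42 at E16.5. The smallest of the 8 changes was 0.70, in miR-30d#, an assay detected in 3 samples of each age, and the largest was that of miR-30e. Without E16.5 replicate 2 the median was 0.94, and 3 of the 8 had an unadjusted p under 0.05: miR-30a-3p and miR-30b, as before, and miR-30e-3p, which had 0.0766 with all samples.

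**Figure D3:**
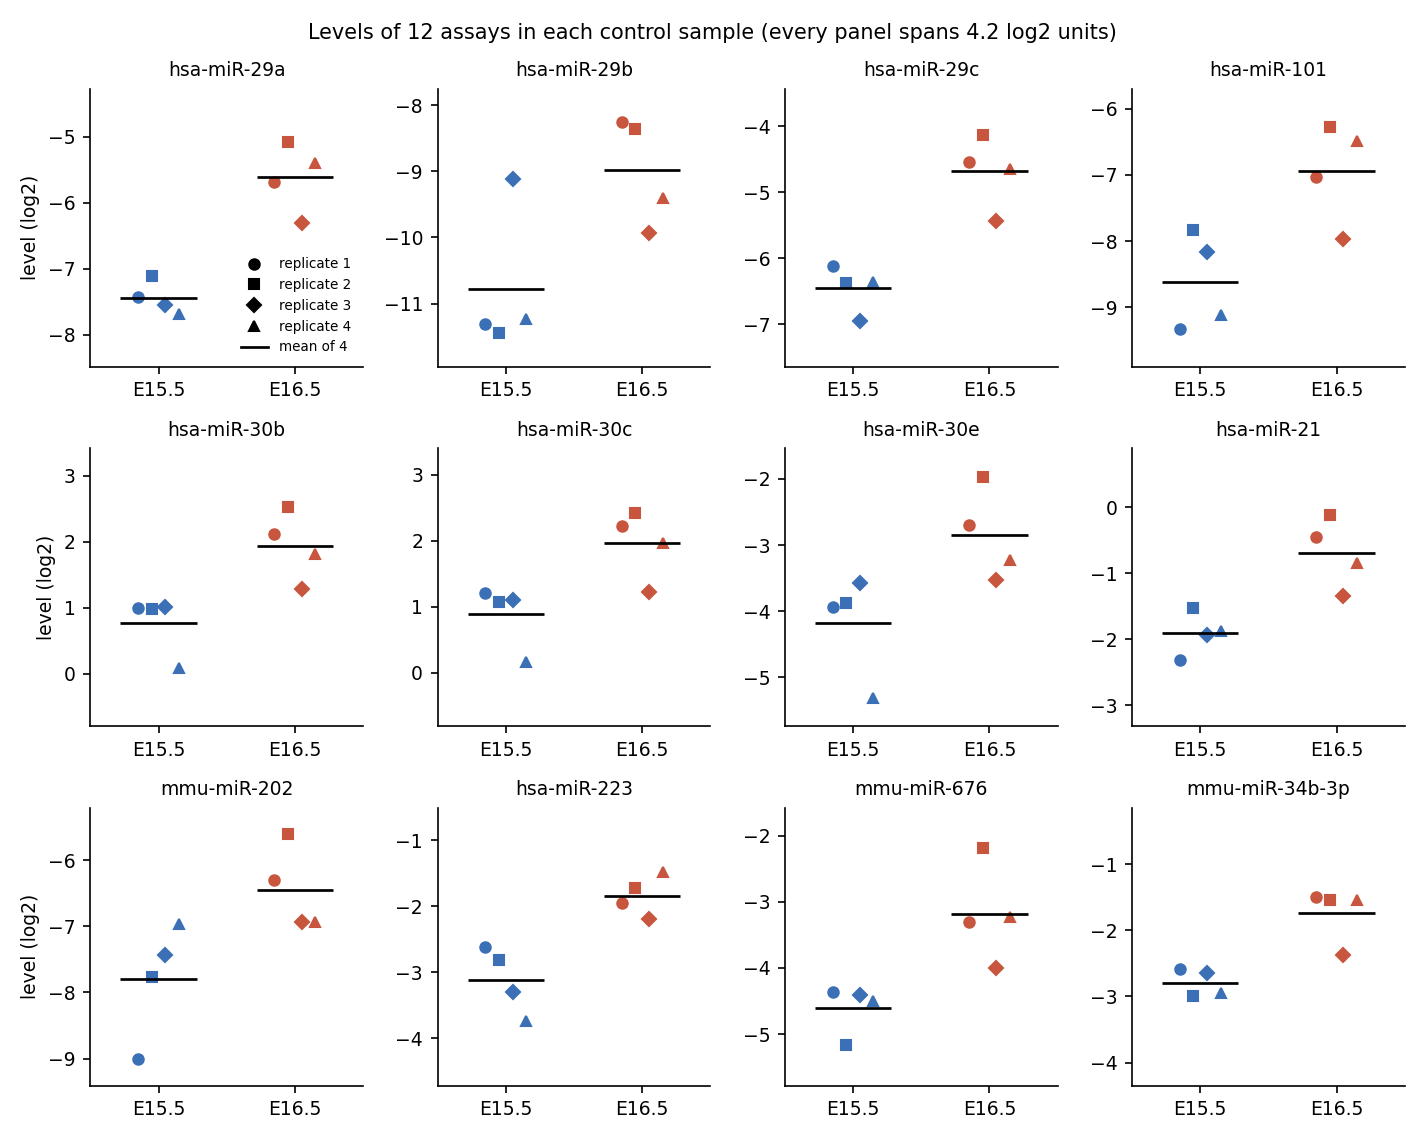
Levels (y axis, log2) of 12 assays in the 4 control samples of each age; symbols mark replicates, bars the mean of 4. In 10 panels all E16.5 samples lie above all E15.5 samples, by very little in miR-202, miR-30c and miR-30e, and in miR-29b and miR-101 the ages overlap.

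MiRNAs of the cAMP and steroidogenic list split by member. Of 9 assays, 4 had an unadjusted p under 0.05, all higher at E16.5, yet the median change was 0.33, below the 0.62 of all tested. Without E16.5 replicate 2 the median was 0.11, and 3 had such a p. MiR-202 was at -9.01, -7.77, -7.43 and -6.97 at E15.5 and at -6.30, -5.61, -6.94 and -6.94 at E16.5, 1.35 ± 0.45 higher in the mean (SE, adjusted p of 0.234 in limma). The highest E15.5 sample and the lowest E16.5 samples nearly met. MiR-21, a widely expressed miRNA that represses Pdcd4, was at -2.31, -1.53, -1.93 and -1.87 and then at -0.46, -0.12, -1.34 and -0.84, and every E16.5 sample was above every E15.5 sample. Its difference was 1.22 ± 0.43 (SE, adjusted p of 0.234 in limma). MiR-210, which responds to low oxygen, differed by 0.91 and miR-212, which follows cAMP through CREB, by 0.87, while miR-132, cut from the same primary transcript as miR-212, differed by 0.33. MiR-125a-5p and miR-125b differed by 0.22 and 0.20.

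The let-7 family, which accumulates as tissues mature and is held back by Lin28, lay close to the background. All 10 assays had changes above 0, from 0.35 to 0.87, with a median of 0.57 against 0.62 of all tested, and 1, miR-98, had an unadjusted p under 0.05. Let-7b was at -0.54, -0.30, 0.55 and 0.59 at E15.5 and at 0.42, 1.68, 0.73 and 0.47 at E16.5, with overlapping ages. MiR-98 was at -4.26, -4.62, -5.01 and -3.02 and then at -3.50, -2.86, -3.34 and -3.71, also with overlap. Without E16.5 replicate 2 the family's median was 0.34 and 0 had an unadjusted p under 0.05.

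The miR-17-92 and miR-16 groups had medians under that of all tested, with assays on both sides of it (above it 8 of 18 and 7 of 16). The difference was not tested. The miR-17-92 and paralogous clusters had a median of 0.46 over 18 assays, with 3 at an unadjusted p under 0.05, and the group of miR-16 and its seed relatives and cluster partners 0.51 over 16, with 2. MiR-19b was at 2.58, 2.62, 2.76 and 1.63 at E15.5 and at 3.36, 3.50, 2.17 and 3.22 at E16.5, and the ages overlapped. MiR-18a differed by -0.02 and was among the 5 members of smallest change. The 2 assays of miR-20b disagreed in size, at 2.39 for the rat assay, which was detected in 1 sample at E15.5 and 4 at E16.5, and 0.92 for the human assay, detected in all 8. The Hox cluster miRNAs had a median of 0.37 over 6 assays, with 0 at an unadjusted p under 0.05.

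The miR-23/27/24 clusters had a median of 0.84 over 7 assays, 4 of them with an unadjusted p under 0.05, and 0.65 with 2 such p without E16.5 replicate 2. MiR-23b lay between -5.66 and -5.20 at E15.5 and between -4.87 and -4.28 at E16.5, with no overlap and a difference of 0.84. MiR-24 differed by 0.86, with overlapping ages. The miR-34 family, which p53 induces, had a median of 1.01 over 5 assays, 2 with an unadjusted p under 0.05. MiR-34b-3p was at -2.58, -3, -2.65 and -2.95 at E15.5 and at -1.5, -1.54, -2.38 and -1.54 at E16.5, 1.05 ± 0.35 higher in the mean (SE, adjusted p of 0.234 in limma). Its wells gave a Ct of 27.6 in a no-template control, close to the limit and far later than in the samples.

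The Dlk1-Dio3 cluster, an imprinted locus whose miRNAs come from the maternal chromosome, had 57 members with a median of 0.62, equal to that of all tested, of which 10 had an unadjusted p under 0.05 (19.1% of all tested) and 9 had ages that did not overlap (12.9% of all tested), shares of the cluster near those backgrounds. Its assays with the smallest p were miR-487b (0.93), miR-434-3p (1.29), miR-376a (1.26) and miR-410 (0.83), and without E16.5 replicate 2 the number with an unadjusted p under 0.05 was 3. The joint group of miR-130 with miR-301 and of miR-148 with miR-152 had a median of 0.75 over 9 assays with 1 such p, miR-181 had 0.55 over 2, miR-200 had 0.84 over 3 and the Sfmbt2 intron cluster 0.57 over 7, these 3 with 0 such p. Without E16.5 replicate 2 the median was 0.29 for the Sfmbt2 cluster and 0.21 for the Hox clusters, and the number with an unadjusted p under 0.05 was 1 in the miR-16 group, 2 in the joint group of miR-130 and miR-148, 1 among the white blood cell miRNAs, 1 in the mesenchyme and muscle list, and 0 in the neural and endothelial lists. Of the Igf2/H19 locus, 0 of 4 assays on the panel were members.

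**Figure D4:**
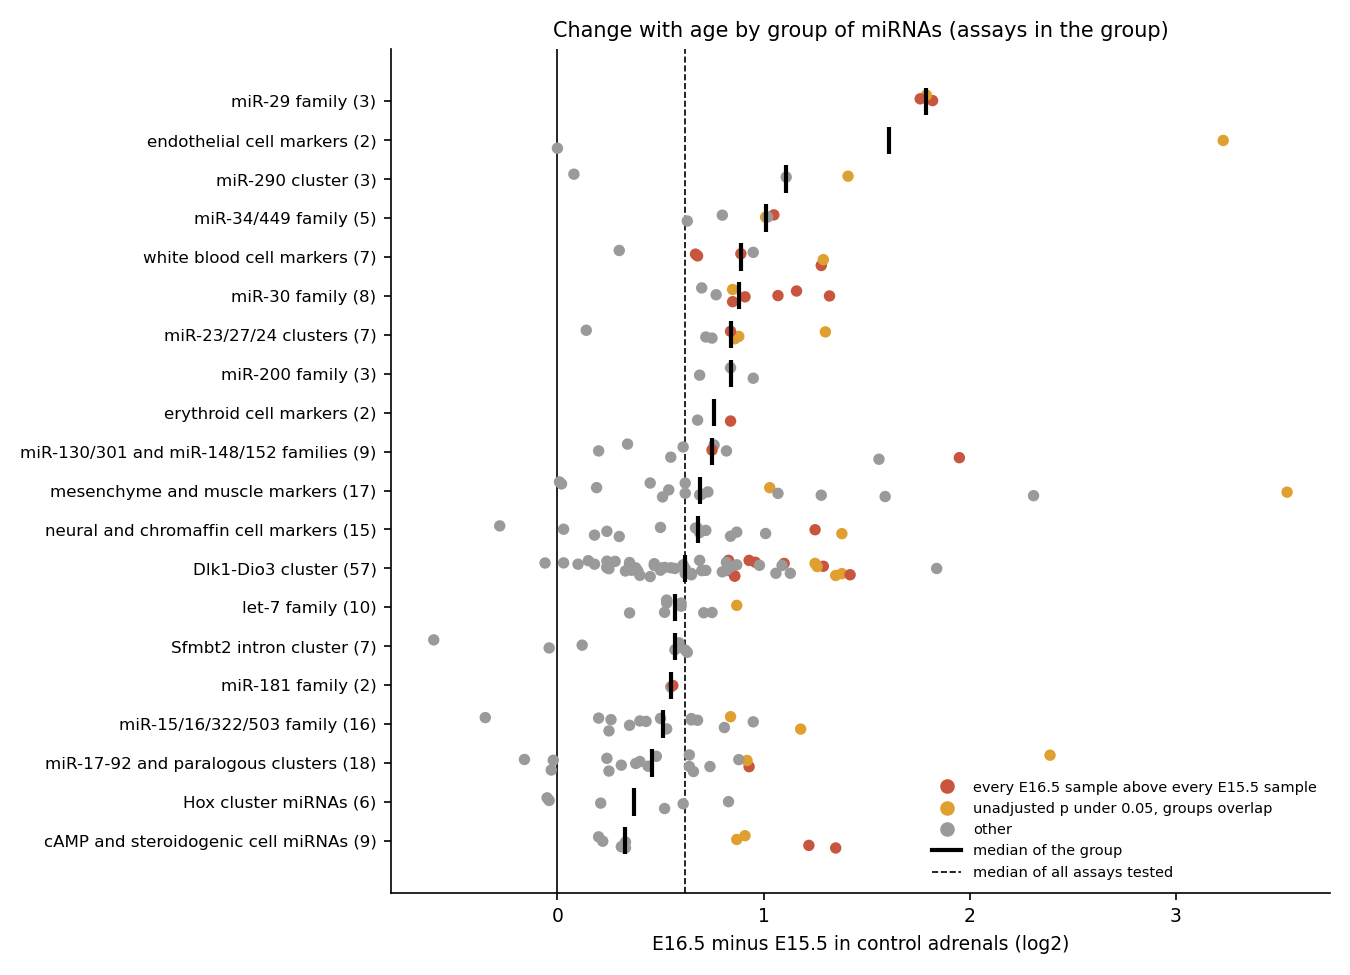
Log2 change of each assay (x axis) by group of miRNAs, with the number of assays in parentheses; thick bars mark group medians and the dashed line the median of all 341 tested, 0.62. The miR-29 family sits at 1.76 to 1.82, while the assays of the Dlk1-Dio3 cluster lie on both sides of the dashed line, as do those of both proliferation groups, whose medians of 0.46 and 0.51 lie to its left.

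Most assays on the lists of other cell types had changes above 0, as did 91.8% of all tested, and none passed the adjusted test. The part of such cells in the differences above was not tested. All 7 assays of white blood cell miRNAs had changes above 0, with a median of 0.89 in WT and 0.91 in KO, and 4 had ages that did not overlap, against 12.9% of all tested. Their summed level was from -1.53 to -1.27 at E15.5 and from -0.88 to 0.10 at E16.5. Such a sum adds the assays of a list on the linear scale before log2 is taken, so it follows the assays that read highest and serves only to compare samples. MiR-223, of granulocytes and monocytes, was at -2.62, -2.82, -3.30 and -3.74 and then at -1.95, -1.73, -2.2 and -1.49, with every E16.5 sample above every E15.5 sample. Its difference was 1.28 ± 0.42 (SE, adjusted p of 0.234 in limma). MiR-150, of mature lymphocytes, differed by 1.29 with overlapping ages, and miR-142-5p and the star arm miR-146b# were not members.

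Of the red cell markers, miR-451, which Argonaute 2 rather than Dicer cuts, was at -4.77, -4.91, -4.57 and -4.74 at E15.5 and at -3.73, -3.14, -4.34 and -4.40 at E16.5. Its ages did not overlap, and the difference of 0.84 ± 0.46 (SE, adjusted p of 0.309 in limma) was near that of the other assays. MiR-486 differed by 0.68 with overlap, the summed level of the 2 was from -3.37 to -2.06 and then from -2.50 to -1.08, and miR-144 was not a member.

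The neural and chromaffin list had a median of 0.68 over 15 assays, with 1 at an unadjusted p under 0.05, and its summed level was from 0.94 to 1.67 at E15.5 and from 1.27 to 2.2 at E16.5. MiR-375 was at -0.96, -1.09, -0.64 and 0.15 and then at -0.11, 0.36, -0.44 and -0.36, with overlap. MiR-124a, a neuronal miRNA, was detected in 3 samples of each age at low level, and miR-153, miR-124# and the 3p arms of miR-219 were not members. The endothelial miR-126 differed by 0.00. Its other arm, miR-126#, had a change of 3.23 that came from E15.5 replicate 4, where it was undetected, while the other 3 samples of that age lay between -1.75 and -1.61, and with undetected wells left out the change was 0.84.

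The miRNAs of striated muscle stood apart in 1 sample. MiR-1 was at -1.95 in E16.5 replicate 2 and at -6.47, -8.08 and -7.75 in the other samples of that age, and at E15.5 its 2 detected samples lay at -8.87 and -7.90. MiR-133a, from the same transcripts as miR-1, was at 1.86 in that replicate and from -4.24 to -2.53 in the other 3, against -4.46 to -2.65 at E15.5. MiR-133b and miR-206, which share a transcript of skeletal muscle, were at -0.51 and 1.5 there, against at most -5.33 and -3.04 in the other E16.5 samples. So E16.5 replicate 2 was the highest of the 8 samples in each of these assays, and the rat assay of miR-1 showed it as well, at -2.76.

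Without that replicate the changes were 2.16 for miR-1 in place of 3.54, 0.27 for miR-133a in place of 1.59, -0.11 for miR-133b in place of 1.28 and -0.52 for miR-206 in place of 0.73. The full mesenchyme and muscle list had 17 members, a median of 0.69 (0.37 without that replicate), and a summed level from 1.78 to 2.31 at E15.5 and from 1.84 to 3.93 at E16.5, with miR-208, of heart, not a member. Over all 335 members, leaving this replicate out gave a median change of 0.47, with 293 above 0, 40 higher and 0 lower at an unadjusted p under 0.05, and 0 called. The replicate also had the latest control Ct of the 8, 18, and the widest gap between the control wells of the 2 sets of sub-arrays, 2.26 cycles. Over all 8 leave-outs the number higher at an unadjusted p under 0.05 ran from 34, without E16.5 replicate 1, to 88, without E16.5 replicate 3, against 65 with all samples, and was 36 without E15.5 replicate 4.

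**Figure D5:**
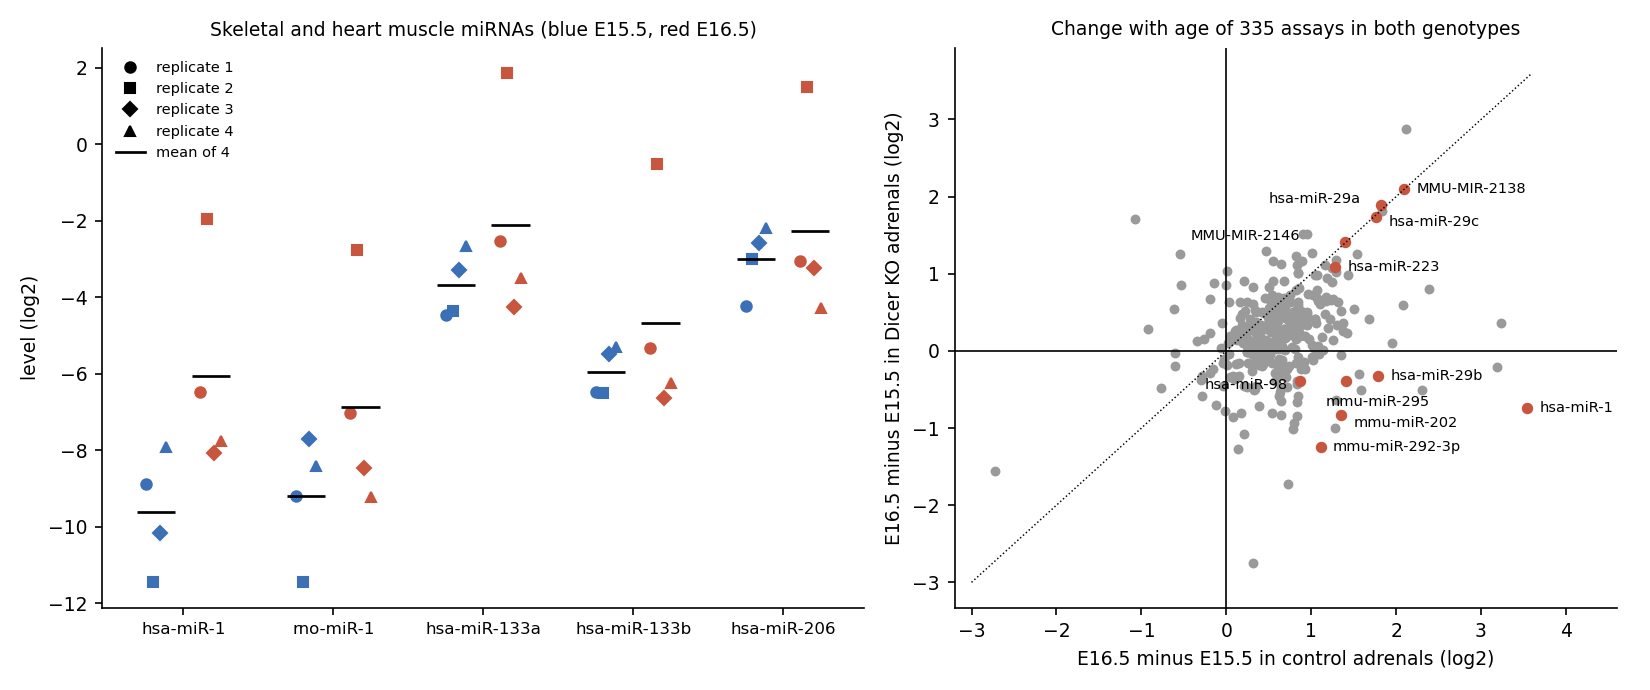
Left, levels (y axis, log2) of the striated muscle miRNAs in each control sample, blue at E15.5 and red at E16.5, with bars at the mean of 4; E16.5 replicate 2 (square) is the highest in each assay. Right, the change from E15.5 to E16.5 of 335 assays in WT (x axis) and in KO (y axis), with the line of equal change dotted. MiR-29a, miR-29c, miR-2138 and miR-2146 lie on it and miR-202, miR-292-3p and miR-1 below it. MiR-29a and miR-29c were each detected in only 3 KO samples at E15.5, and the undetected well counts at the limit.

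The 3 assays that passed the adjusted test once the control wells were matched to the assay were miR-2146, miR-2138 and miR-2134, names from sequencing surveys for which no role is stated here. RefSeq, as used here, gave no mature mouse sequence for any of these 3. By the row order of the table and the place of its control wells, each sample's 16 sub-arrays form 2 sets of 8 whose control wells differ in Ct, by 0.41 to 2.1 cycles at E15.5 and by 0.78 to 2.26 at E16.5, and all 3 assays stand in set 2. With the controls of their own set, limma called 3 members higher and 0 lower (0.88% of all tested). MiR-2138 was then at 0.73, 0.88, -1.18 and -0.06 at E15.5 and at 2.22, 1.88, 2.56 and 2.48 at E16.5, and rose by 2.19 (adjusted p of 0.0248 in limma). MiR-2146 was at -1, -1.22, -1.72 and -1.03 and then at -0.07, 0.19, 0.47 and 0.42, and rose by 1.49 (adjusted p of 0.00906 in limma). MiR-2134 was at 5.98, 5.49, 4.91 and 5.55 and then at 6.38, 6.65, 6.58 and 7.03, and rose by 1.18 (adjusted p of 0.0422 in limma).

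In each of the 3 the ages were apart on that scale. With the 5 controls over both sets their changes were 1.40, 2.09 and 1.08 with adjusted p from 0.17 to 0.234 in limma, and in KO they were 1.41, 2.1 and 0.65. MiR-2138 and miR-2134 gave a Ct of 25.7 and 23.4 in a no-template control, so some signal can arise without sample RNA. In every WT sample both read at an earlier Ct than that. The mean Ct of the set 2 controls was 16.76 to 19.14, and levels against them were at least -1.18 for miR-2138 and 4.91 for miR-2134. How much of the difference such signal makes was not tested. Of the 335 members, 6 had a Ct of 28 or less in a no-template control, namely these 2, miR-34b-3p, miR-31, miR-1896 and miR-92.

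Among the other assays of small p, miR-101, which represses the chromatin enzyme Ezh2, was at -9.33, -7.84, -8.17 and -9.12 at E15.5 and at -7.03, -6.27, -7.97 and -6.49 at E16.5, and differed by 1.68 ± 0.53 (SE, adjusted p of 0.234 in limma). The ages met at E15.5 replicate 2 and E16.5 replicate 3. MiR-676 was at -4.36, -5.17, -4.41 and -4.50 and then at -3.30, -2.19, -4 and -3.23, with no overlap, and differed by 1.43 ± 0.48 (SE, adjusted p of 0.234 in limma). Outside the naming rule and chosen after its values were seen, miR-194 was detected in 2 samples at E15.5 and 4 at E16.5, with a change of 3.19 in which undetected wells count.

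A few members were detected at 1 age only. MiR-582-5p was undetected in all 4 samples at E15.5 and at -10.13, -9.43, -10.58 and -8.61 at E16.5, which is at least 2.56-fold higher with E15.5 at the detection limit. The rat assay of miR-148b-5p was detected in 0 and 3 samples, with -8.54, -9.27 and -8.56 at E16.5, and miR-671-5p in 0 and 3. MiR-467d was detected in 3 and 0 samples, at levels no higher than -10, so it lay at the limit at both ages. In all, 11 members gained and 6 lost 2 or more detected samples.

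In no member did every E16.5 sample lie below every E15.5 sample. The 10 assays with the smallest p among those lower at E16.5 had changes from -2.72 to -0.30 and unadjusted p of 0.107 or more. MiR-715 was detected at E15.5 in 3 samples, at -5.29, -5.66 and -7.19, and at E16.5 in 1, at -6.84. MiR-690 was at -2.21, -1.60, -2.45 and -3.03 and then at -3.58, -3.97, -1.93 and -2.26, so the ages overlapped. MiR-345-3p had a change of -0.77 in its mouse assay and 0.85 in its rat assay, and miR-351 had -0.35 and 0.40. For miR-296-3p, miR-1191 and miR-352 the sign changed when undetected wells were left out, to 1.37, 0.82 and 0.09.

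The members of smallest change that were detected in all 8 samples were miR-126 (0.00), miR-214 (0.01 in its human assay), miR-1937C (0.01), miR-199b (0.02) and miR-18a (-0.02). A small change here means one below the common shift. MiR-1937C was not steady between samples: it was at 5.46 in E15.5 replicate 1 and 4.94 in E16.5 replicate 4, and from 1.45 to 2.35 in the other 6. MiR-1937B, at 6.42 and 5.71 in the same samples, and from 2.54 to 3.37 in the others, showed the same pattern. It was shared by 2 assays named after their values were seen, miR-1274A (1.39 and 0.44, others at most -1.08) and miR-720 (2.64 and 1.65, others at most 0.11), names since traced to fragments of transfer RNA.

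Assays of the 2 arms of 1 hairpin, which share a precursor, gave changes that differed by less than 1 standard error in the median. In the 50 such pairs the median gap was 0.35, against 0.45 between any 2 members, and both arms were above 0 in 42. Since 91.9% of all members were above 0, that count does not set these pairs apart from others. In 16 miRNAs read by more than 1 assay the median gap between 2 assays was 0.43, with a largest gap of 1.61 for miR-345-3p. Differences between members of that size are thus also found between assays of the same miRNA.

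The KO adrenals had a median change of 0.24 over the 335 members, with 234 above 0 (69.8% of all tested), 0 called in limma (0% of all tested, smallest adjusted p 0.252), 21 at an unadjusted p under 0.05 (6.45% of all tested), and 8 with every E16.5 sample above every E15.5 sample (2.35% of all tested). The test of the difference, WT change minus KO change, called 0 members (0% of all tested, smallest adjusted p 0.986). At an unadjusted p under 0.05 there were 13 (3.81% of all tested), all with the larger change in WT.

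The 13 include miR-202, with 1.35 in WT and -0.83 in KO (difference 2.17 ± 0.63, SE), and miR-292-3p of the miR-290 cluster, known from embryonic stem cells and germ cells, with 1.11 and -1.24 (difference 2.34 ± 0.82, SE). The 3 assays of that cluster among the members had a median of 1.11 in WT, with 1 at an unadjusted p under 0.05. The 13 also include miR-98, of the let-7 family, with 0.87 and -0.39, and miR-29b, miR-295 and miR-1. MiR-202 was detected in 2 KO samples at E15.5 and 0 at E16.5, and miR-98 and miR-295 in 0 KO samples, so their KO changes reflect the detection limit. Of the 44 members whose WT ages did not overlap, 41 had a KO change above 0.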

How the data were processed

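The authors deposited a table of threshold cycles (Ct) that they had not normalized, with 846 wells, 16 samples and 2 no-template controls; its unit is the cycle, no count or ratio. Megaplex primers made the cDNA from RNA of an RNAqueous Micro kit, per the labels' protocols. Cycler settings are unknown here. Levels were the mean of the 5 controls (over wells, then names) minus the assay's Ct; 7 members with 2 wells were averaged. Group means of the 16 samples were fitted with limma 3.58.1 in R 4.3.3 (lmFit, contrasts.fit, eBayes) over the 341 assays detected in 3 or more samples of a group, with Benjamini-Hochberg adjustment and a threshold of 0.05; sample measures had exact permutation tests over 70 splits. The fit was tested on simulated data. That only 4 samples form a group limits the precision, and p-values measure the spread between litter pools. In limma that spread is shared by WT and KO pools, also for a change within WT. Members, lists and tests were chosen with earlier results of these data known. Named assays are the 10 smallest p in each direction, up to 4 per list, those undetected at 1 age, the 5 steadiest and 5 highest, and miR-451. The 22 lists are families, clusters and cell markers; miR-451 also forms a list alone. Replicate numbers were not taken to pair the samples. Of 23 miRNAs looked up for sequence, 18 matched and 5 did not, namely miR-2146, miR-2138, miR-2134, miR-30b-5p and miR-30d-5p.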

Additional observations from a re-analysis of the deposited data

Results flagged for a closer look

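Of 179 groups of 4 samples examined, 11 held a sample far from its other 3, and chance alone marks about 1 in 20. The mean Ct of the controls was 17.83 in E15.5 replicate 3, against 16.55 to 16.76 in the other samples of that age. In E15.5 replicate 4, miR-30b was low at 0.09 (others 0.98 to 1.01), miR-30c at 0.17 (others 1.07 to 1.21), miR-19b at 1.63 (others 2.58 to 2.76) and miR-213 at -9.98 (others -8.31 to -8.07). In E15.5 replicate 3, miR-30a-5p was high at -1.18 (others -1.68 to -1.64) and the human assay of miR-20b at -4.72 (others -5.55 to -5.46). MiR-676 was low in E15.5 replicate 2, at -5.17 (others -4.50 to -4.36). At E16.5, miR-34b-3p was low in replicate 3 at -2.38 (others -1.54 to -1.50), miR-10a high in replicate 2 at 0.87 (others -0.07 to 0.02) and miR-18a# high in replicate 4 at -6.42 (others -7.19 to -7.12). Over the 282 members detected throughout, E15.5 replicate 4 was such a sample in 13, and each other sample in 5 or fewer.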

How the results depend on the processing

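The difference of sample medians, 0.70, kept its direction under every alternative run. It missed 0.05 (exact permutation) with U6 alone (0.38), without normalization (0.40), at a detection limit of Ct 30 (0.65), over assays detected in all 16 samples (0.48) or, added after seeing the data, in all 8 WT samples (0.61), and without 1 E15.5 sample (p of 0.0571 each); over all leave-outs it ran from 0.62 to 0.82. The counts of 0 higher and 0 lower held except for 3 higher with own-set controls and, in the replicate block with the 8 WT samples alone, 11 higher and 1 lower; the block over 16 samples gave 0. Same-number deviations correlated at 0.28, -0.46, -0.08 and -0.22, so the numbers did not pair the samples. The difference in detected assays, 7.25, ran from -0.417, without E15.5 replicate 3, to 11.9, without E15.5 replicate 2. Of 2587 values of the 95 named assays under 36 settings, 78, in 14 assays, had another sign than in the report, among them 0 of the 10 named for the smallest p above 0 and 3 of the 10 below 0. The cause was not tested. Assays near Ct 28 have only bounds. A log2 change below the median standard error of 0.46 lies within the error. Larger changes are not thereby resolved, since 0 assays passed the adjusted test in the main fit.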
